A study of Mus musculus with 7 samples.

Results

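Transcripts of 8 genes of the signalling lymphocytic activation molecule (SLAM) family were examined in B-lineage cells sorted from the mouse spleen. The set held 6 receptors, Slamf1, Slamf6, Slamf7, Ly9, Cd84 and Cd48, and the adaptors Sh2d1a and Sh2d1b1. They were taken by name, and all 8 were found among the 48795 genes of the deposited table. There were 3 libraries of memory B cells (MBCs) and 4 of plasma cells (PCs), made from splenic cells of wild type C57BL/6 females aged 8 to 12 weeks that had received sheep red blood cells, a T cell-dependent antigen, into a vein 10 days earlier. MBCs were sorted as B220+ cells negative for CD138 and IgD that carried CD38 and CD273, and PCs as B220-low, CD138+ and IgD-negative cells. Beads against CD43 preceded both sorts, and no group carried a transgene, a deletion or a further treatment. The labels do not say whether the libraries of a group came from separate mice, so p-values measure the spread between these samples only. Each MBC library shared a code in its title with a PC library (MBC replicate 1 with PC replicate 1, 2 with 3 and 3 with 4), and what the code stands for is not stated. In bulk RNA, fewer cells of a type and less RNA per cell cannot be told apart.

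SLAM family receptors are surface proteins of the immunoglobulin superfamily that sit on most blood cells. Most of them bind a copy of themselves on the neighbouring cell, so that the same gene supplies both ligand and receptor. CD48 is an exception, being held in the membrane by a lipid anchor and binding CD244 and CD2. The tails of most other receptors carry a tyrosine motif that is bound by small adaptors made of little more than an SH2 domain, namely SAP (encoded by Sh2d1a) and EAT-2 (Sh2d1b1 in the mouse). These adaptors link the receptors to Src family kinases and other enzymes, and without them the receptors can recruit inhibitory phosphatases. In the germinal center, SAP in T cells is needed for lasting contact with B cells, and human SLAMF7 is the target of an antibody used against plasma cell tumours.

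The tail motif is what ties the receptors to the adaptors, and its codons are shown for the 5 member receptors in which it was found near the end of the protein. The search was for the codons of Thr-x-Tyr-x-x-Val or Thr-x-Tyr-x-x-Ile, in frame, in the GENCODE M21 coding sequences (GRCm38). It gave 9 matches that lay at most 64 codons before the stop codon, each in coding exons of chromosome 1. Capitals mark the tyrosine codon, and each sequence is written 5′ to 3′ on the strand of its gene.
Slamf7, chr1:171636327-171636344, minus strand: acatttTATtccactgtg
Slamf1, chr1:171792339-171792356, plus strand: actattTATgcccaagta
Slamf1, chr1:171799588-171799605, plus strand: acagttTATgccagtgtg
Slamf6, chr1:171939437-171939454, plus strand: actgtgTATgcacaagtc
Slamf6, chr1:171941664-171941681, plus strand: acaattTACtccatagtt
Ly9, chr1:171593912-171593929, minus strand: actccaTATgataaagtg
Ly9, chr1:171593438-171593455, minus strand: acaatcTACtgctctgtg
Cd84, chr1:171884605-171884622, plus strand: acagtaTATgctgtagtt
Cd84, chr1:171885601-171885618, plus strand: accattTATtcctcagtg

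Slamf1, Slamf6, Ly9 and Cd84 each held 2 of these codon runs and Slamf7 held 1. The single match in Cd48 lay 130 codons before its stop codon, away from the end of the reading frame. Of the family members outside the set, Cd244a held 4 matches, 25 to 128 codons before its stop codon. Slamf8 held 1, which lay 159 codons before its stop codon and so also away from the end, and Slamf9 held 0. A match is a run of letters and not a measured phosphorylation site.

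Values are given as scaled TPM. TPM is the read count of a gene divided by its length, scaled so that the values of each library add to the same total. Immunoglobulin transcripts filled 49.4% to 55.9% of the TPM of PCs but 1.65% to 3.16% of that of MBCs. The TPM of a library was therefore divided by a factor set on 9305 genes found in all libraries, which ran from 1.48 to 2.05 in MBCs and from 0.636 to 0.813 in PCs. Read totals were not given. From the spacing of low values, 1 TPM of a 1 kb transcript was worth an estimated 6.33 to 11.6 reads in MBCs and 9.44 to 16.6 reads in PCs, so that 3 reads, taken as the floor, lay between 0.126 and 0.391 scaled TPM. The groups carried their defining transcripts, with 5 of 5 plasma cell markers called higher and 3 of 5 B cell markers called lower in PCs. The sort markers did not all follow the gates. In MBC replicate 3, Cd38 and Pdcd1lg2 went against the label. Cd38 was at 130.3 and 185.7 scaled TPM in the other MBC libraries but at 6.77 in this one, below the 9.89 to 21.3 of PCs, and Pdcd1lg2, which encodes CD273, was at 43.3, 24.4 and 2.59. Ighd, whose product IgD both sorts excluded, was by contrast highest in MBC replicate 1, at 85.8, 39.9 and 9.55 in MBCs and 14.2 to 38.8 in PCs. MBC replicate 3 also had the highest Bcl6, a germinal center transcription factor, at 104.7 against 26.7 and 15.6. The prefix of its title differed from that of the other MBC libraries and was shared by PC replicate 4 alone. What the prefix stands for is not stated, and among MBCs it cannot be told apart from these deviations. The test results of members and other named genes are therefore also given without MBC replicate 3.

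Slamf7 rose in PCs and Slamf1 fell, and these were the only members that passed the test. The mean of Slamf7 was 4.44 times as high in PCs as in MBCs, and the mean of Slamf1 was 13.5 times as high in MBCs as in PCs. Slamf6, Ly9, Cd84, Cd48 and Sh2d1b1 were tested and not called, and Sh2d1a was too low to be tested. A gene was called when its adjusted p in limma was under 0.05 and its log2 fold change, PC minus MBC, was at least 1 in size. Of the 11573 genes tested, 6.41% were called higher and 2.14% lower in PCs (8.55% in either direction). Of the 7 tested members 1 was called in each direction, and counts of 1 say nothing about the family as a whole. The median log2 fold change of the 7 tested members was -0.88, against 0.14 for all tested genes.

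**Figure D1:**
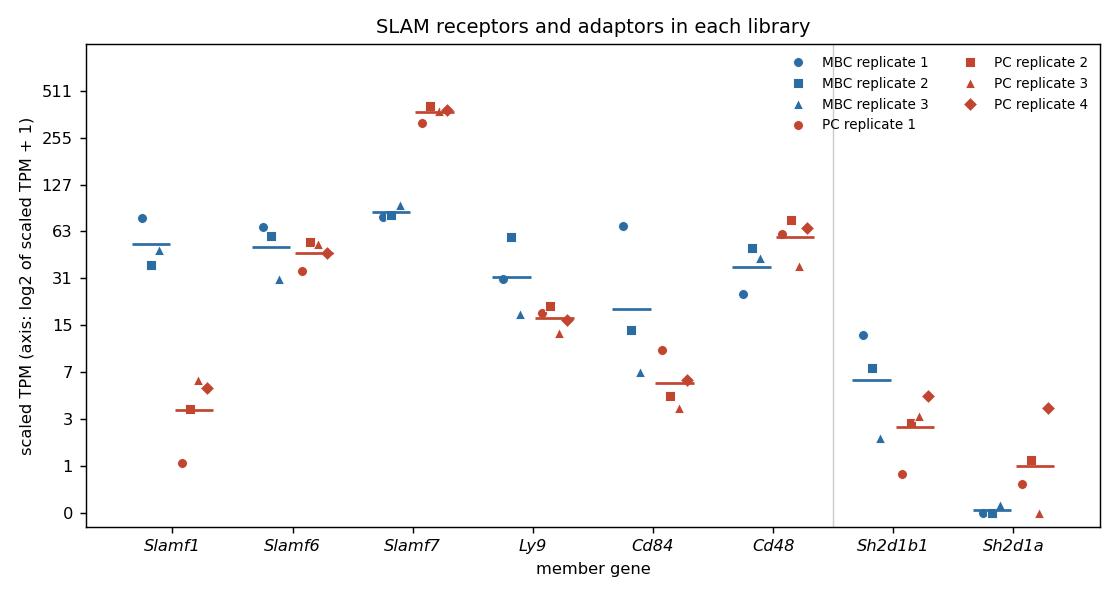
Scaled TPM of each member in every library, on an axis of log2(scaled TPM + 1), with 1 point per library and a short bar at the group mean on that scale. Slamf7 of the 4 PC libraries (315.6 to 410.0) and Slamf1 of the 3 MBC libraries (38.1 to 77.0) stand clear of the other group, and the remaining members overlap.

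Slamf7 (ENSMUSG00000038179, chr1:171632403-171653035, minus strand) encodes a receptor that binds itself and signals through EAT-2. In replicate order, the MBC libraries held 77.8, 80.6 and 93.9 scaled TPM of it, and the PC libraries 315.6, 410.0, 380.4 and 387.6. Every PC library was above every MBC library. The log2 fold change was 2.14 (SE 0.28, 95% interval 1.51 to 2.76, limma adjusted p = 0.0012). Slamf7 was an abundant transcript in both groups. By TPM it ranked between 494 and 938 among the 11573 tested genes in MBC libraries and between 250 and 298 in PC libraries. Without MBC replicate 3 the log2 fold change was 2.22 (limma adjusted p = 0.0014). On TPM as deposited, where the median of all tested genes was -0.91, the difference was 0.82 and was not called (limma adjusted p = 0.0717), although the groups still did not overlap (119.6 to 192.8 TPM in MBCs, 200.7 to 309.2 in PCs).

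Slamf1 (ENSMUSG00000015316, chr1:171767127-171801184, plus strand) encodes CD150, the founding receptor of the family and its own ligand. The MBC libraries held 77.0, 38.1 and 48.0 scaled TPM, against 1.10, 3.61, 6.13 and 5.30 in the PC libraries, each in replicate order as in what follows. The lowest MBC library was well above the highest PC library, and all PC libraries were above the floor. The log2 fold change was -3.54 (SE 0.54, 95% interval -4.74 to -2.34, limma adjusted p = 0.0030). Without MBC replicate 3 it was -3.60 (limma adjusted p = 0.0070). Slamf1 was called lower in PCs in 18 of 18 alternative analyses, with adjusted p from 0.0011 to 0.0246. Slamf1 and Slamf7 were the only tested members whose groups did not overlap, 2 of 7 tested members, where 21.7% of all tested genes did not overlap.

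The promoters of the called members are shown because these genes lie close together and moved in opposite directions. RefSeq (GRCm38.p6) gave a window of 300 bases, 250 before and 50 after the start, for 6 of the 8 members. Sequences are 5′ to 3′ on the strand of the gene, and capitals mark the E-box letters CAGCTG.
Slamf7, chr1:171648950-171649249, minus strand: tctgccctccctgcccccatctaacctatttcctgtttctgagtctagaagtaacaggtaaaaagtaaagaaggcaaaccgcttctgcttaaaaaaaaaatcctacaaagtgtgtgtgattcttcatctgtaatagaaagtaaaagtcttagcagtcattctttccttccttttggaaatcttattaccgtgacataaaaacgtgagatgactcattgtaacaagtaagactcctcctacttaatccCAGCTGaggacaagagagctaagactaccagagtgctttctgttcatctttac
Slamf1, chr1:171766882-171767181, plus strand: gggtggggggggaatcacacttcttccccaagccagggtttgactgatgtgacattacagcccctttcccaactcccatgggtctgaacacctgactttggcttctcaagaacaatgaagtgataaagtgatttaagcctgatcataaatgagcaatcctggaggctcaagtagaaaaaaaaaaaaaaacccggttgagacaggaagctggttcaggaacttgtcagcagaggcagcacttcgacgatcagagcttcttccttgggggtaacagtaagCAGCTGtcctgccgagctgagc

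The letters CAGCTG, which read the same on both strands, were in the windows of Slamf7 and Slamf1 and in none of the other 4 members with a window, and 16.3% of all 32851 RefSeq promoter windows held them. The ETS letters CCGGAAGT, searched on both strands, were in the window of Cd48 alone among the members and in 3.89% of all windows. The composite ETS-IRF element, the interferon response element, the PRDM1 core GTGAAAG and the octamer ATGCAAAT, again on both strands, were in 0 of the 6 member windows, and in 2.72%, 3.44%, 4.24% and 1.74% of all windows. The first 2 of these can overlap each other. The start that RefSeq used for Slamf7 lies inside the longer GENCODE gene.

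Slamf6 (Ly108), a self-binding receptor best known from T cells and germinal centers, was at 67.8, 58.9 and 30.6 scaled TPM in MBCs and at 34.4, 53.9, 52.4 and 45.3 in PCs. MBC replicate 3 was the lowest of all 7 libraries and the groups overlapped. PCs differed from MBCs by a log2 fold change of -0.12 (SE 0.38, 95% interval -0.97 to 0.74, limma adjusted p = 0.88). Its sign turned in several alternatives, and without MBC replicate 3 the difference was -0.46 (95% interval -1.18 to 0.27, limma adjusted p = 0.34). On TPM as deposited it was -1.41 and called (limma adjusted p = 0.0216).

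Ly9 (CD229), a long self-binding receptor with duplicated extracellular domains, was at 30.8, 57.7 and 17.9 scaled TPM in MBCs and at 18.1, 20.3, 13.4 and 16.4 in PCs. MBC replicates 1 and 2 were above all PC libraries, and MBC replicate 3 fell among them. The difference on the log2 scale was -0.88 (SE 0.45, 95% interval -1.88 to 0.13, limma adjusted p = 0.27). Without MBC replicate 3 it was -1.28 (limma adjusted p = 0.0512), and on TPM as deposited it was -2.15 and called (limma adjusted p = 0.0056). Ly9 overlaps Cd244a on the opposite strand, and whether counting used strand is not stated, so reads of the overlap could not be told apart.

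Cd84, a self-binding receptor of B cells and platelets, was the most uneven member among MBCs. It stood at 68.4, 13.8 and 6.998 scaled TPM in MBCs and at 10.1, 4.65, 3.68 and 6.15 in PCs. MBC replicate 1 was far above all other libraries and MBC replicate 3 was within the range of PCs. Its log2 fold change was -1.58 (SE 0.72, 95% interval -3.20 to 0.04, limma adjusted p = 0.22). It was -2.25 without MBC replicate 3 (limma adjusted p = 0.0510) and -0.69 without MBC replicate 1 (limma adjusted p = 0.49), and on TPM as deposited it was -2.77 and called (limma adjusted p = 0.0205).

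Cd48, the lipid-anchored ligand of CD2 and CD244, was at 24.5, 49.0 and 42.4 scaled TPM in MBCs and at 60.9, 74.7, 37.6 and 66.5 in PCs. Only PC replicate 3 fell within the range of MBCs. Its log2 fold change was 0.63 (SE 0.39, 95% interval -0.24 to 1.503, limma adjusted p = 0.36), and 0.73 without MBC replicate 3 (limma adjusted p = 0.25). On TPM as deposited it turned to -0.66 (limma adjusted p = 0.20).

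**Figure D2:**
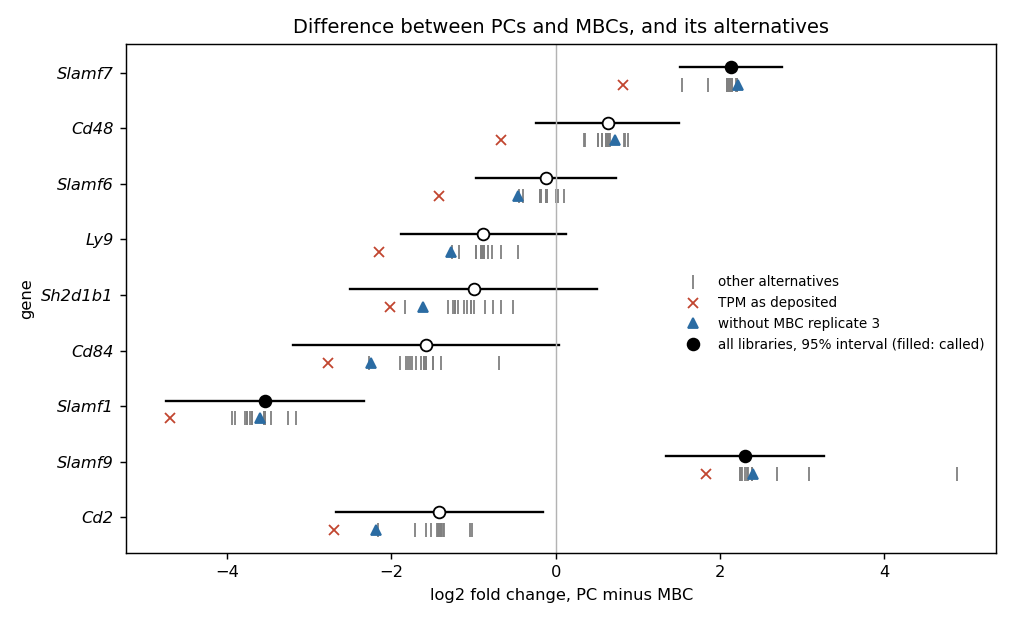
Log2 fold change, PC minus MBC, of the 7 tested members and of Slamf9 and Cd2, with circles and 95% intervals for the fit to all libraries (filled where called) and marks below each circle for the alternatives. Slamf7 and Slamf1 lie on opposite sides of 0 under every alternative drawn, and with TPM as deposited (crosses) every gene drawn lies further left than in the fit to all libraries.

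The adaptors were low. Sh2d1b1, which encodes EAT-2, was at 12.8, 7.53 and 2.02 scaled TPM in MBCs and at 0.771, 2.78, 3.20 and 4.64 in PCs. The estimated reads behind these values were 112 to 343 in MBCs and 16.8 to 128 in PCs. MBC replicates 1 and 2 were above all PC libraries and MBC replicate 3 was within their range. The log2 fold change was -0.997 (SE 0.67, 95% interval -2.50 to 0.51, limma adjusted p = 0.40), and -1.61 without MBC replicate 3 (limma adjusted p = 0.10). The reading frame of Sh2d1b1 is 91.7% identical to that of its neighbouring copy Sh2d1b2 over 398 aligned bases, so the split of reads between the copies is uncertain. Sh2d1b2 itself was listed at 0 in 6 of 7 libraries and at 0.039 scaled TPM in MBC replicate 3.

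Sh2d1a, which encodes SAP, was listed at 0, 0 and 0.127 scaled TPM in MBCs and at 0.535, 1.17, 0 and 3.74 in PCs. It reached 1 TPM in PC replicate 4 alone and was not tested with the other members. When all genes above 0 were tested it was not called (limma adjusted p = 0.47). SAP is known from T and NK cells. Neither gate was set to collect these cells, but some of their marker transcripts were listed in the PC libraries. The summed level of 8 T cell markers was 0.0494 to 2.02 scaled TPM in MBCs and 14.9, 32.5, 37.4 and 39.0 in PCs, and of the 3 that could be tested, Cd3e and Trac were called higher in PCs. Cd8a was at 0 in all libraries but PC replicate 4, where it was at 0.502. The sum of the T cell markers was highest in PC replicate 4, but single markers peaked in different PC libraries. Cd3e was highest in PC replicate 2 (14.2), Trac in PC replicate 3 (23.1) and Thy1 in PC replicate 4 (5.01). The summed level of 7 NK cell markers was at most 0.497 in MBCs and 3.97 to 8.41 in PCs, with 1 tested and 0 called by limma (1 higher at an unadjusted p under 0.05). The part of such cells in the Sh2d1a values, and in those of the receptors, was not tested.

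Because TPM is per length, the receptors could also be set side by side within a library, which does not depend on the scaling. Of the summed TPM of the 6 receptors, Slamf7 made up 22.5%, 27.0% and 39.2% in MBCs and 71.7%, 72.3%, 77.1% and 73.5% in PCs. The mean share of Slamf7 was 29.6% ± 8.63 for MBCs (SD, n = 3) and 73.6% ± 2.41 for PCs (SD, n = 4). Slamf1 made up 22.2%, 12.8% and 20.01% in MBCs and 0.250%, 0.637%, 1.24% and 1.00% in PCs. The ratio of Slamf7 to Slamf1 was 1.011, 2.12 and 1.96 in MBCs and 286.6, 113.5, 62.1 and 73.2 in PCs. MBCs thus held a mixture of receptor transcripts, while a single receptor held most of the total in PCs.

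The shares of Slamf6 (17.4% ± 3.98 in MBCs, 9.13% ± 1.21 in PCs), Ly9 (11.9% ± 6.49 and 3.38% ± 0.606) and Cd84 (9.10% ± 9.26 and 1.26% ± 0.715) were lower in every PC library than in any MBC library (SD, n = 3 and 4). Shares add to the whole, so a larger share of Slamf7 lowers the others. Cd48 alone overlapped, at 13.7% ± 5.80 and 11.8% ± 2.84. The sum of the 6 receptors was 294.8 ± 53.3 scaled TPM in MBCs and 507.0 ± 53.7 in PCs. Without Slamf7 the sum was 210.7 ± 61.5 in MBCs and 133.6 ± 19.1 in PCs, with MBC replicate 3 at 145.9 and within the 113.1 to 157.2 of PCs.

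**Figure D3:**
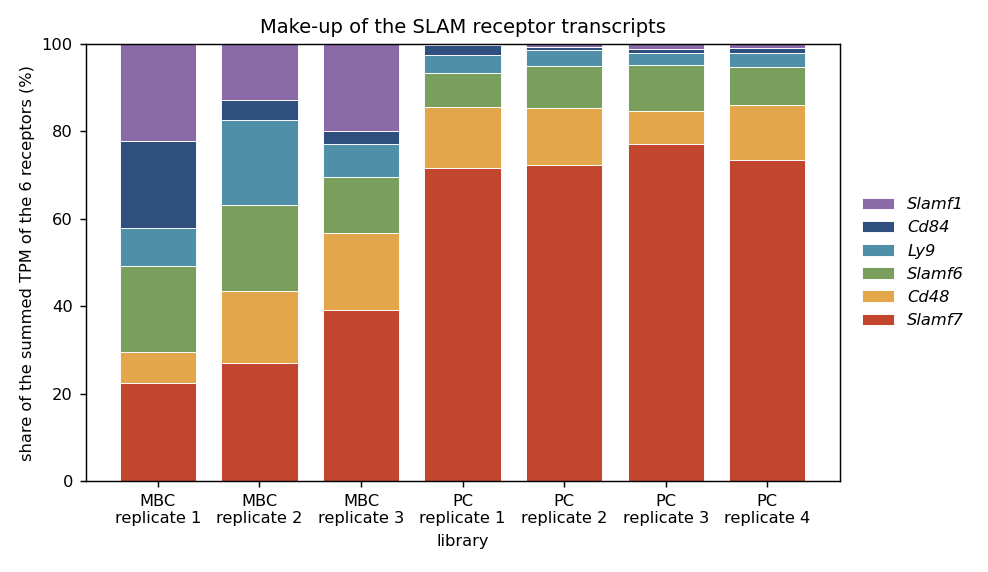
Share (percent, from 0) of each of the 6 receptors in their summed TPM, with 1 stacked bar per library. Slamf7 takes 22.5% to 39.2% of each MBC bar and 71.7% to 77.1% of each PC bar, and Slamf1 shrinks from at least 12.8% to at most 1.24%.

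The order of levels differed between the groups. Slamf7 was the highest member in all 7 libraries. In PCs the means of scaled TPM ran from Slamf7 through Cd48, Slamf6, Ly9, Cd84, Slamf1 and Sh2d1b1 to Sh2d1a. Each step held in 4 of 4 PC libraries, except that Cd48 over Slamf6 and Cd84 over Slamf1 held in 3. In MBCs the means ran from Slamf7 through Slamf1, Slamf6, Cd48, Ly9, Cd84 and Sh2d1b1 to Sh2d1a. Slamf7 over Slamf1, Cd84 over Sh2d1b1 and Sh2d1b1 over Sh2d1a held in 3 of 3 MBC libraries. The steps from Slamf1 down to Cd84 did not hold in all 3, and Cd48 over Ly9 held in only 1. The middle receptors of MBCs were therefore not separated beyond their spread.

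Of 5 related genes outside the set, 2 could be tested. Slamf9, a short-tailed family member, was at 0, 0 and 0.229 scaled TPM in MBCs and at 4.01, 4.82, 3.46 and 5.07 in PCs. It was low but higher in every PC library, and the difference on the log2 scale was 2.31 (SE 0.43, limma adjusted p = 0.0092). Without MBC replicate 3 it was 2.41 (limma adjusted p = 0.011). Slamf9 was called in 14 of 17 alternatives and lost with all genes above 0 tested (limma adjusted p = 0.0512) and under both replicate blocks. Cd2, a receptor of CD48, was at 118.5, 114.4 and 22.7 scaled TPM in MBCs and at 31.1, 23.6, 21.8 and 23.9 in PCs. MBC replicate 3 lay within the range of PCs here, and Cd2 was not called with it (log2 fold change -1.41, limma adjusted p = 0.16) but was called without it (-2.18, limma adjusted p = 0.0029). Cd244a, the other receptor of CD48, was at most 0.502 in MBCs and 1.35 in PCs, and Slamf8 at 0 in all MBCs and at most 0.726 in PCs. Both were under the minimum for testing, and neither was called when all genes above 0 were tested (limma adjusted p = 0.50 and 0.47).

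Of 28 enzymes and adaptors linked to SLAM receptor signalling, 24 were tested. Of these, 4 fell in PCs (4 of 24, beside 2.14% of all tested genes). None was called higher by limma (3 higher at an unadjusted p under 0.05). The median log2 fold change of the 24 was -0.79, against 0.14 for all tested genes. The genes that fell were Lyn, a Src family kinase of B cells (-1.87, limma adjusted p = 0.031), Ptpn6, which encodes the inhibitory phosphatase SHP-1 (-1.65, limma adjusted p = 0.024), Inpp5d, which encodes the lipid phosphatase SHIP-1 (-1.65, limma adjusted p = 0.038), and Ptprc, which encodes CD45 (-1.67, limma adjusted p = 0.026). Lyn was at 76.9, 203.4 and 56.6 scaled TPM in MBCs and at 25.01 to 26.4 in PCs. Ptpn6 was at 70.7, 133.8 and 111.2 in MBCs and at 21.7 to 41.8 in PCs. B220 is a form of CD45, so Ptprc was part of the sort and its place among the 4 is not independent of the gates. Without MBC replicate 3 the differences were -2.24 for Lyn, -1.59 for Ptpn6, -2.08 for Inpp5d and -2.07 for Ptprc, all called by limma.

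These 4 calls did not hold in every fit. With a replicate block by title code all were lost (limma adjusted p = 0.084 for Lyn, 0.11 for Ptpn6, 0.11 for Inpp5d and 0.074 for Ptprc). When 1 library was left out at a time, Lyn was called in 2 of 7 fits, Ptpn6 in 3, Inpp5d in 1 and Ptprc in 1. The number of partners called lower was 0 without PC replicate 1, 2 or 3 and 1 without PC replicate 4 or MBC replicate 2. It was 2 without MBC replicate 1 and 8 without MBC replicate 3. Calls over all 11573 tested genes moved the same way, with 138, 91, 118 and 111 lower without PC replicates 1 to 4. Without MBC replicates 1 to 3 they were 141, 161 and 919, so the swing was not particular to the partners. Among partners, 3 were higher and 9 lower in PCs with no overlap between groups, where 13.0% and 8.68% of all tested genes were. Fyn, the kinase that SAP recruits, named here for that role, was at 7.09, 17.5 and 18.1 scaled TPM in MBCs and at 6.12 to 7.31 in PCs, and was not called (-0.84, limma adjusted p = 0.31).

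The 6 receptor genes lie in 1 cluster at chr1:171588624-171953170 (GRCm38), 364.5 kb long, in the order Ly9, Slamf7, Cd48, Slamf1, Cd84 and Slamf6. Sh2d1b1 lies on the same chromosome at chr1:170277320-170286769 and Sh2d1a on the X chromosome. Among the other genes within the cluster or 500 kb on either side, 29 of 69 were tested, of which 4 were called higher in PCs (4 of 29, beside 6.41% of all tested genes) and none lower by limma (2 lower at an unadjusted p under 0.05). Their median log2 fold change was 0.85. Slamf7 and Slamf1, with opposite changes, are separated only by Cd48 among the member genes.

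The neighbours called higher were Fcer1g, which encodes the signalling gamma chain of Fc receptors (4.28, limma adjusted p = 0.034), and the antisense RNAs B930036N10Rik (3.30, limma adjusted p = 0.0048), Gm37787 (3.02, limma adjusted p = 0.016) and Gm37065 (2.13, limma adjusted p = 0.045). Gm37787 lies inside Slamf7 and Gm37065 overlaps Slamf6, each on the opposite strand, so their reads and those of the receptors cannot be told apart where counting did not use strand. Gm37787 was at 0.790, 0.0944 and 3.33 scaled TPM in MBCs and at 29.4, 14.5, 14.1 and 9.61 in PCs, far below Slamf7 in each library. Fcer1g was at 29.5, 0 and 0.370 scaled TPM in MBCs and at 36.6 to 95.8 in PCs. B930036N10Rik was called in 18 of 18 alternatives. Without MBC replicate 3 the difference of Fcer1g was 3.61 and not called (limma adjusted p = 0.063), while those of B930036N10Rik (3.73), Gm37787 (3.57) and Gm37065 (2.44) were called. Fcer1g and Gm37065 were each called in 1 of 7 fits with a library left out, and Gm37787 lost its call without PC replicate 1, 2 or 3.

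**Figure D4:**
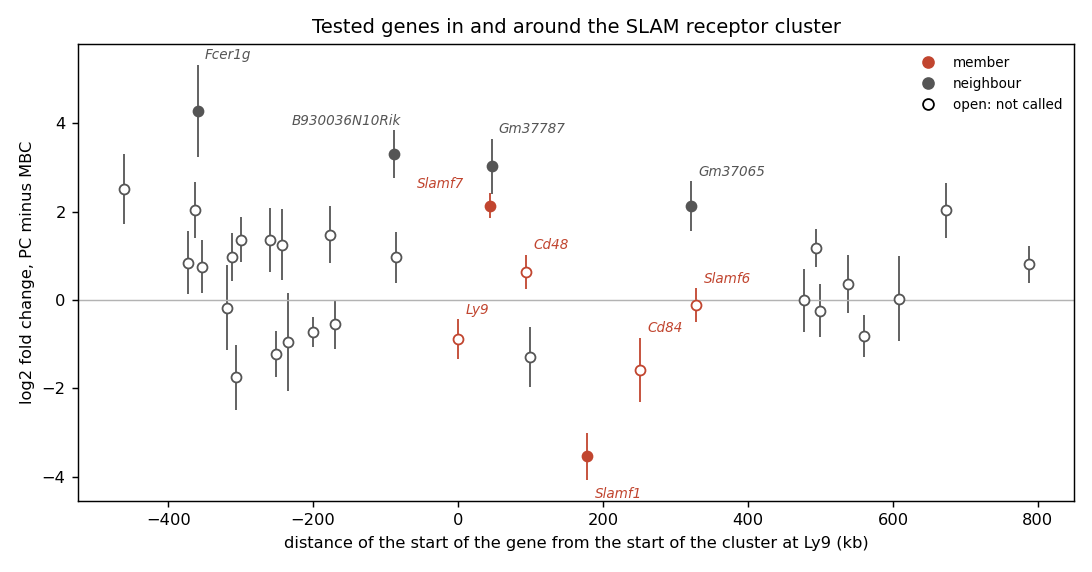
Log2 fold change, PC minus MBC, with its standard error, of each tested gene in and around the receptor cluster, against the distance in kb of its start from that of Ly9, filled where called. Slamf7 (2.14) and Slamf1 (-3.54) lie on opposite sides of 0, and the 4 called neighbours are all above 0.

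The genes most like each called member were found by the root mean square difference of centred log2(scaled TPM + 1) over the 7 libraries. The nearest to Slamf1 were Cd22, an inhibitory receptor of B cells (0.42), Bin1, a membrane-bending protein (0.44), and Cd180, a Toll-like receptor relative of B cells (0.51). The nearest to Slamf7 were Ftl1, the ferritin light chain (0.10), Slamf9 (0.16) and Slc38a10, an amino acid transporter relative (0.18). The added 1 narrows the changes of low genes such as Slamf9, so its nearness holds on this scale only. The log2 fold changes of Slamf9 and Slamf7 were 2.31 and 2.14 with 1 added, but 4.88 and 2.15 with 0.1 added. Cd22 was at 267.6, 283.4 and 191.9 scaled TPM in MBCs and at 9.60 to 30.0 in PCs.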

How the data were processed

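Bulk RNA of 3 MBC and 4 PC libraries was compared. Per the labels, cDNA was made with a Nugen kit and read on an Illumina HiSeq. The authors deposited TPM for 48795 Ensembl genes. The submitters' processing notes name STAR 2.5.2a, RSEM 1.3.0, DESeq2 1.18.1 and GRCm38. Whether counting used strand is not given in the sources used here. Symbols came from GENCODE M21 by gene ID (48349 matched). The members and gene lists were chosen with earlier results of these data known.

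TPM was scaled by the median ratio to the geometric mean over 9305 genes above 0 in all libraries. The 11573 genes at 1 TPM or more in at least 3 libraries were fitted on log2(scaled TPM + 1) with limma 3.58.1 (trend, R 4.3.3), with no covariate. This scale understates changes of low genes. P-values were adjusted by Benjamini-Hochberg over all genes tested, and calls needed an adjusted p under 0.05 and a log2 fold change of at least 1 in size. Between 74.4% and 82.8% of low values fell within 0.15 of whole reads, against 30% by coincidence. Floors cover counting error only. Named genes were all members and related genes, called partners and cluster neighbours (at most 5 in each direction), and the 3 genes nearest to each called member. The 18 alternatives changed the scaling, pseudocount, filter, weights, block or libraries. Python 3.11.15, pandas 2.3.3, numpy 2.4.6 and matplotlib 3.10.9 served the other steps.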

Additional observations from a re-analysis of the deposited data

How the results depend on the processing

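Slamf1 kept its direction and its call in 18 of 18 alternatives, and Slamf7 in 17 of 18. TPM as deposited moved the median difference over the genes tested from 0.14 to -0.91 (log2). With it, Slamf7 was at 0.82 and lost its call, Slamf6 (-1.41), Ly9 (-2.15) and Cd84 (-2.77) were called lower, and Cd48 turned to -0.66. Members called higher then numbered 0 and lower 4, partners called lower 15, and related genes called lower 1. All genes called higher and lower numbered 742 and 248, and 472 and 3018 on TPM as deposited. They numbered 393 and 431 with immunoglobulin genes removed, 437 and 123 with all genes above 0 tested, and called lower were 460 after quantile normalization and 417 within the more frequent title prefix (MBC replicates 1 and 2, PC replicates 1 to 3). Related genes called higher numbered 0 with all genes above 0 tested or with a 5 TPM minimum, and 1 was called lower within the prefix. Partners called higher numbered 1 with all genes above 0 tested, with the 5 TPM minimum and within the prefix, and partners called lower 1 with all genes above 0 tested. Array weights turned Slamf6 to 0.0254. The cause of these moves was not tested.

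With a replicate block by number, all genes called higher and lower were 390 and 60, and with a block by title code 434 and 83. Under both replicate blocks, related genes called higher and partners called lower were 0, and Slamf1 and Slamf7 stayed called. Whether the numbers or codes pair the libraries could not be decided from correlations of deviations from group means, with so few libraries. These were 0.109, -0.0398 and -0.0832 for equal numbers, and 0.109, -0.00436 and 0.222 for equal codes. MBC replicate 1 and PC replicate 1 correlated best with each other, as did MBC replicate 3 and PC replicate 4, which share a code. MBC replicate 2 correlated best with PC replicate 1 (0.0539), which has neither its number nor its code.

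Leaving out 1 library at a time gave Slamf6 between -0.46 and 0.10, with turned signs without MBC replicate 1 (0.10), MBC replicate 2 (0.0052) and PC replicate 1 (0.02). All genes called higher then ran from 451 to 1592 and called lower from 91 to 919, both highest without MBC replicate 3. Related genes called lower ran from 0 to 1, partners called higher from 0 to 1 and lower from 0 to 8, and the difference in the Slamf7 share from 40.5 to 48.9 percentage points. At 1 kb, 3 reads lay at up to 0.391 scaled TPM, and this floor is lower for longer transcripts. The longest transcripts of Slamf8 and Cd244a have 1659 and 3760 bases. No library held more than 0.726 scaled TPM of Slamf8 or 1.35 of Cd244a.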

Other observations

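The other marker lists gave values beside the comparison. The summed level of 4 erythroid markers was 2897 scaled TPM in MBC replicate 2 and at most 72.6 in any other library. Myeloid markers summed to 2.32 to 29.0 scaled TPM in MBCs and 2.16 to 7.68 in PCs, dendritic cell markers to 5.81 to 11.1 and 1.29 to 4.61, and platelet markers to at most 4.58 and 1.17. Germinal center B cell markers summed to 199.7, 233.1 and 548.7 in MBC replicates 1 to 3 and to 50.4 to 113.3 in PCs. Spn, the gene of the bead target CD43, was at 2.07 to 9.23 in MBCs and 11.9 to 25.5 in PCs.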
